A study of Mus musculus with 9 samples.

Results

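The genes described here are 38 genes of macrophages and other myeloid cells, chosen by name, in whole left kidneys of mice with reversible ureteral obstruction. A gene was tested when at least 3 of the 9 microarrays read a probe of it, matched through its RefSeq accession, as well above background, and its brightest such probe stood for it. By this rule 34 of the 38 genes were tested, among 17742 genes in all. Cd163, a scavenger receptor, was above background on 1 array only, and Gpnmb, a lysosomal glycoprotein, on 0 of its arrays, so neither was tested. Cd68, a lysosomal protein, and Clec7a, the beta-glucan receptor, were not analysed here.

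All kidneys came from male ISAM mice of mixed background, aged 10 weeks, with the genotype Epo–/–::3.3K-Epo3'-Tg458. These mice lack the endogenous erythropoietin gene and carry an Epo transgene, and they are a model of erythropoietin-deficiency anaemia. Every arm, controls included, had this genotype. The arm called Clip (3 mice) had the left ureter closed with a vascular clip for 2 days. In the arm called ClipR-14 (3 mice) a 2-day clip was followed by 12 days after its removal. The control arm joined 2 sham-treated mice and 1 untreated mouse. Nothing in the labels says whether the arrays of an arm were separate litters or operations, so the p values measure the spread between these arrays, and the number of arrays limits the precision. The mice are one line, and no mice with normal erythropoietin were compared.

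Macrophages are phagocytes that live in the interstitium of the kidney, and in injury they are joined by monocytes from the blood. Both depend on colony stimulating factor 1 (CSF1) acting on its receptor, and both are specified by the transcription factor PU.1, the product of Spi1. They sense antibody, lipid and debris through receptors that signal by adaptors with an ITAM, a tyrosine motif that recruits the kinase Syk. A whole kidney gives RNA of all its cells, so more cells of a type and more RNA per cell cannot be told apart.

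Levels below are log2 of the array's signal over the 75th percentile of that array, so a level of 0 is the 75th percentile, and they are given in the order sham 1, sham 2, untreated, then replicates 1, 2 and 3 of Clip and of ClipR-14. Levels of different genes come from different probes and are not comparable. Changes are differences of arm means with the standard error (SE) of the fit, n = 3 arrays per arm, tested with limma and adjusted over all genes by the Benjamini-Hochberg (BH) method, with 0.05 as the threshold. A gene is said to rise or fall only where it passed.

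After 2 days of obstruction 31 of the 34 genes were higher than in control kidneys, 1 was lower and 2 were not called, where 21.4% of all genes tested were higher and 27.6% lower. Of the 31, 28 rose at least 2-fold, as did 9.44% of all genes. The median change of the 34 was 2.02 on the log2 scale, against -0.09 for all genes. Counts over the tested genes are a description, because 6 of them (Msr1, Ms4a6d, Spi1, Ncf1, Lyz2 and Arg1) were above background on no control array and so could hardly have been lower. Among the 26 that were above background on all 9 arrays, the fit run on such genes alone put 24 higher and 1 lower. Of the 15127 genes in that fit 3120 were higher and 4650 lower. The arms did not overlap for 33 of the 34 genes, Csf1r being the exception, while 58.6% of all genes had arms apart. The summed linear level of the 34 genes was 26.2 to 29.5 on the control arrays, 94.6 to 106 on the Clip arrays and 36.7 to 41.2 on the ClipR-14 arrays. Bright probes weigh most in such a sum, in Clip those of Lgals3, Cd14 and Mpeg1 (mean levels of 4.58, 3.47 and 3.01). Each of the 3 slides held 1 array of each arm, and 32 of the genes were higher in Clip than in control on all 3 slides. That count is not given here for all genes. Slide 3, whose control was the untreated kidney, was scanned on another day than slides 1 and 2. Among the controls, untreated against sham, slide and day of scan therefore cannot be told apart.

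**Figure D1:**
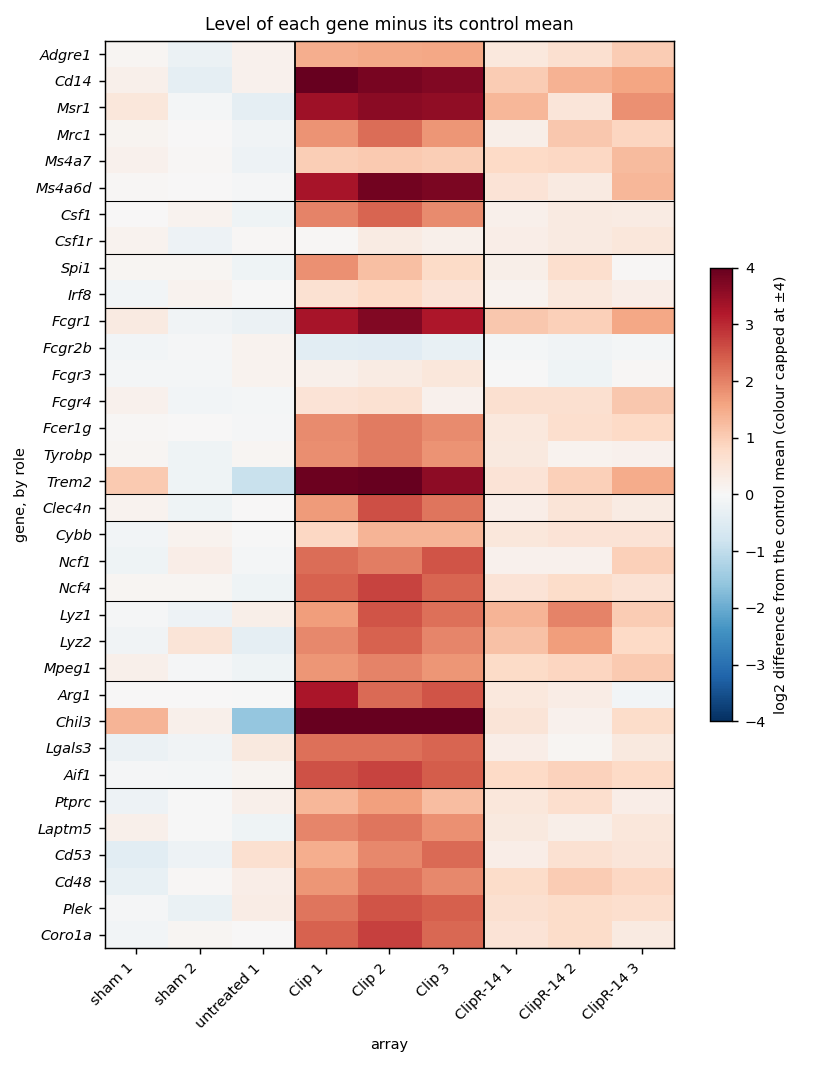
Level of each of the 34 tested genes on each of the 9 arrays, as the log2 difference from the gene's mean over the 3 control arrays; horizontal lines part the roles, vertical lines the arms, and the colour stops at 4. Nearly every row is red in the 3 Clip columns and pale in the ClipR-14 columns, while Csf1r, Fcgr2b, Fcgr3 and Fcgr4 stay pale in Clip.

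The surface markers and scavenger receptors comprised 6 tested genes, and all 6 rose in Clip. Adgre1 encodes an adhesion receptor that is the standard surface marker of mouse tissue macrophages. Its levels were -0.24, -0.54 and -0.15 in control, 1.13, 1.21 and 1.23 in Clip, and 0.12, 0.33 and 0.71 in ClipR-14. It rose 2.83-fold (1.50 ± 0.16, adjusted p = 0.000129), with no overlap between Clip and either other arm.

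Cd14, the co-receptor for bacterial lipopolysaccharide, had levels of -0.15, -0.75 and -0.22 in control, 3.65, 3.42 and 3.34 in Clip, and 0.63, 1.0 and 1.21 in ClipR-14. The 3 arms stood apart, Clip highest and control lowest. Cd14 rose 14.3-fold in Clip (3.84 ± 0.20, adjusted p = 4.37e-06). Ms4a6d, a tetraspan membrane protein of monocytes and macrophages, was well above background on the Clip arrays only. Its measured levels were -3.06, -2.53 and -2.62 there, and between -6.41 and -6.34 in control. For such a gene the fold is a bound, taken on each array of the dimmer arm against its own signal or, where that is higher, the faintest signal that still counted as above background: Ms4a6d was at least 2.92-fold higher in Clip (adjusted p = 1.2e-05). The class A scavenger receptor Msr1 was likewise at least 3.58-fold higher (adjusted p = 6.4e-05).

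Mrc1, the mannose receptor CD206 of tissue-resident and alternatively activated macrophages, had levels of -3.34, -3.42 and -3.59 in control, -1.65, -1.21 and -1.70 in Clip, and -3.22, -2.38 and -2.59 in ClipR-14. All 3 Clip arrays lay above all others. The rise was 3.80-fold (1.93 ± 0.22, adjusted p = 0.000176). Ms4a7, another tetraspan protein, rose 2.00-fold (1.0 ± 0.15, adjusted p = 0.000806), and it is described further with the released kidneys.

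The ligand and the receptor of the CSF1 axis parted. Csf1, the growth factor itself, had levels of -0.17, -0.06 and -0.35 in control, 1.80, 2.13 and 1.70 in Clip, and 0.01, 0.15 and 0.14 in ClipR-14. Clip stood clear of both other arms, and Csf1 rose 4.20-fold (2.07 ± 0.13, adjusted p = 1.01e-05). Csf1r, the receptor, had levels of 2.30, 1.95 and 2.19 in control, 2.21, 2.47 and 2.34 in Clip, and 2.42, 2.50 and 2.61 in ClipR-14. Control and Clip overlapped. The change in Clip was 0.19 ± 0.12 (adjusted p = 0.228), with a 95% interval from -0.09 to 0.46, so a rise as large as that of Csf1 lay outside it. The 3 probes of Csf1r disagreed in direction: the other two had mean levels of -3.48 and -0.02 in control and -3.96 and -0.15 in Clip, lower in Clip, and the brightest alone was higher. With quantile normalization the brightest probe passed the threshold (0.36, adjusted p = 0.0445). Csf1r was the only one of 13 genes with several probes past the filter whose probes did not all move one way.

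Among other colony stimulating factor genes and their receptors, Il34, the second ligand of the CSF1 receptor, rose 3.63-fold (adjusted p = 0.00124), and Csf2rb, the beta chain of the receptor for granulocyte-macrophage CSF, rose 2.86-fold (adjusted p = 8.37e-05). In that list of 4 tested genes 3 were higher, 0 were lower, and Csf3r was not called (0.81, adjusted p = 0.0997). After release 0 of the 4 were called (limma; 0 also had an unadjusted p under 0.05).

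Of the lineage transcription factors, Spi1 was well above background on the Clip arrays only. Its levels there were -3.10, -3.75 and -4.18, against -4.85, -4.85 and -5.12 in control and -4.69, -4.28 and -4.90 in ClipR-14. Clip 3 came close to ClipR-14 2, but control and Clip did not overlap. Spi1 was at least 1.52-fold higher in Clip (adjusted p = 0.00458), a call lost with normexp background correction (adjusted p = 0.0893). Irf8, which works with PU.1 in monocyte and dendritic cell development, had levels of 0.88, 1.13 and 0.99 in control, 1.60, 1.80 and 1.55 in Clip, and 1.15, 1.43 and 1.25 in ClipR-14. It rose 1.57-fold (0.65 ± 0.12, adjusted p = 0.00202), and the arms did not overlap. Of 7 other myeloid transcription factors, 1 rose and 2 fell. Ikzf1, the lymphoid and myeloid factor Ikaros, was at least 2.66-fold higher (adjusted p = 0.000906), and Maf, a factor of macrophages and other cells, fell 1.62-fold (adjusted p = 0.0109).

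PU.1 binds DNA at a purine-rich core, GAGGAA, in the promoters of many myeloid genes. The letters were searched on both strands in the promoter window of RefSeq, from 250 bases before to 50 bases after each gene's start (build GRCm38.p6). Promoters of 24 of the 34 tested genes were in the table, some with more than 1 start, and 13 of their 29 promoters (44.8%) held GAGGAA, against 28.3% of 32851 promoters of all genes. The longer GAGGAAG, which contains the first, was in 8 of the 29 (27.6%) and in 13.6% of all. Counted by gene, 12 of the 24 held GAGGAA, against 31.3% of 27025 genes. Of the 22 genes among them that rose in Clip, 11 held GAGGAA and 11 did not, Csf1, Fcer1g, Chil3 and Lyz2 among the latter, and Fcgr4, which was not called, held it. A match is a description of the letters and not a site of binding. The 250 bases before the start are printed below, 5′ to 3′ in the direction of the gene, as examples of where the letters fall for 4 genes that hold them in this stretch, and for Fcgr2b, the one gene that fell, which holds none, with each match on either strand in capitals (TTCCTC is the reverse complement). Counted back from the start, the matches begin at base -55 in Fcgr1, -40 in Trem2, -7 in Aif1, and -180, -167 and -35 in Mrc1.
Fcgr1 (chr3:96293970-96294219, minus strand): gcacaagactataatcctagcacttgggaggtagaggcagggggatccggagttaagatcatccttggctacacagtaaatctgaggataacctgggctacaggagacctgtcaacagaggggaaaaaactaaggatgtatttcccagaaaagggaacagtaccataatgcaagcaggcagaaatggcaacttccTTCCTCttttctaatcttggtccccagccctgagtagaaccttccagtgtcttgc
Trem2 (chr17:48346151-48346400, plus strand): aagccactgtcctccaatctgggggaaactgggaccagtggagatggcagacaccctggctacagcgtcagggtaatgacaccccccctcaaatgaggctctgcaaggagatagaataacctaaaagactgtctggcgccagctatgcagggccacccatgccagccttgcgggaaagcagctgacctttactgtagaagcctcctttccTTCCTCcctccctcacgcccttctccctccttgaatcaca
Aif1 (chr17:35176053-35176302, minus strand): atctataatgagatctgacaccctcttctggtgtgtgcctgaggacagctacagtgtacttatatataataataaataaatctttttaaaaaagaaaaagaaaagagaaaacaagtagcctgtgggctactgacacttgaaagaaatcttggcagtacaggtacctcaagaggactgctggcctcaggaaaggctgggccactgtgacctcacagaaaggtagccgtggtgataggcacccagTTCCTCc
Mrc1 (chr2:14229164-14229413, plus strand): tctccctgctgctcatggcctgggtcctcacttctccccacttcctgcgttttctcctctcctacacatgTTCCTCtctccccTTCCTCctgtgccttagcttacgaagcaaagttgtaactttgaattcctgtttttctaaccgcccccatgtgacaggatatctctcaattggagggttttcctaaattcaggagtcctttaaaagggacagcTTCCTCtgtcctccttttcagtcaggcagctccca
Fcgr2b (chr1:170976072-170976321, minus strand): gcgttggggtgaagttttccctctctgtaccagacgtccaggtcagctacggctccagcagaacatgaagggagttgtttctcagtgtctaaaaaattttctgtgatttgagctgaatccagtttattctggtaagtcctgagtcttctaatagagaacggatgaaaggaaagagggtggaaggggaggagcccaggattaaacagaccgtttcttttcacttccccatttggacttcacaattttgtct

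All of these matches lie on the strand opposite to the gene. The promoters of the 4 genes differ in where the letters fall, and no array value was used in the search.

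The Fc receptors, which bind the constant part of IgG, did not move as a family. Fcgr1, the high-affinity receptor CD64, had levels of -1.20, -1.70 and -1.82 in control, 1.72, 2.12 and 1.66 in Clip, and -0.49, -0.62 and -0.01 in ClipR-14. The 3 arms stood apart, and Fcgr1 rose 10.6-fold in Clip (3.40 ± 0.22, adjusted p = 1.07e-05). Fcgr2b, the inhibitory receptor, was the one gene that fell. Its levels were 1.29, 1.36 and 1.56 in control, 0.99, 0.95 and 1.12 in Clip, and 1.33, 1.26 and 1.32 in ClipR-14. Every Clip array lay below every other array, and the fall was 1.30-fold (-0.38 ± 0.10, adjusted p = 0.0116). All 3 probes of Fcgr2b were lower in Clip, but with the mean of the probes the call was lost (adjusted p = 0.117).

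Fcgr3, a low-affinity activating receptor, had levels of -0.28, -0.29 and -0.09 in control, -0.01, 0.12 and 0.23 in Clip, and -0.23, -0.41 and -0.16 in ClipR-14. It rose only 1.26-fold (0.33 ± 0.11, adjusted p = 0.0342). That call was lost under 9 of 19 other settings, among them leaving out sham 1 (adjusted p = 0.0937), sham 2 (0.103), Clip 2 (0.0835) or Clip 3 (0.101). Fcgr4, the activating receptor for IgG2, had levels of -1.30, -1.57 and -1.54 in control, -0.93, -0.85 and -1.29 in Clip, and -0.83, -0.84 and -0.40 in ClipR-14. Control and Clip just failed to overlap, and the change of 0.45 ± 0.17 was not called (adjusted p = 0.0534). It passed under 3 of 19 other settings: without Clip 3, without ClipR-14 3, and in the fit on genes above background on all 9 arrays (adjusted p = 0.0437). Genes of this family share sequence, as do Lyz1 with Lyz2 and Chil3 with its neighbours, so a probe may read more than 1 of them.

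The signalling partners of these receptors rose. Fcer1g, the ITAM adaptor of Fcgr1, Fcgr3 and Fcgr4, rose 3.85-fold (1.95 ± 0.11, adjusted p = 6.61e-06), and Tyrobp, the adaptor DAP12, rose 3.74-fold (1.90 ± 0.12, adjusted p = 9.91e-06). Trem2, a lipid receptor that signals through DAP12, had levels of -2.22, -3.44 and -4.15 in control, 0.66, 0.84 and 0.30 in Clip, and -2.71, -2.32 and -1.78 in ClipR-14. Clip was far above both other arms, which overlapped. The rise of 14.6-fold (3.87 ± 0.45, adjusted p = 0.000186) carries a wide error because the control arrays differed among themselves, sham 1 being highest and the untreated kidney lowest. Clec4n, or dectin-2, a lectin for fungal mannan that pairs with Fcer1g, had levels of -3.51, -3.81 and -3.64 in control, -1.93, -1.06 and -1.52 in Clip, and -3.38, -3.13 and -3.32 in ClipR-14. All Clip levels lay above the rest, and Clec4n rose 4.43-fold (2.15 ± 0.20, adjusted p = 6.34e-05). Further along this pathway 12 of 13 listed genes rose and 0 fell, among them the kinase Btk (4.77-fold, adjusted p = 6.21e-06), while the phosphatase Ptpn6 was not called (0.22, adjusted p = 0.394).

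**Figure D2:**
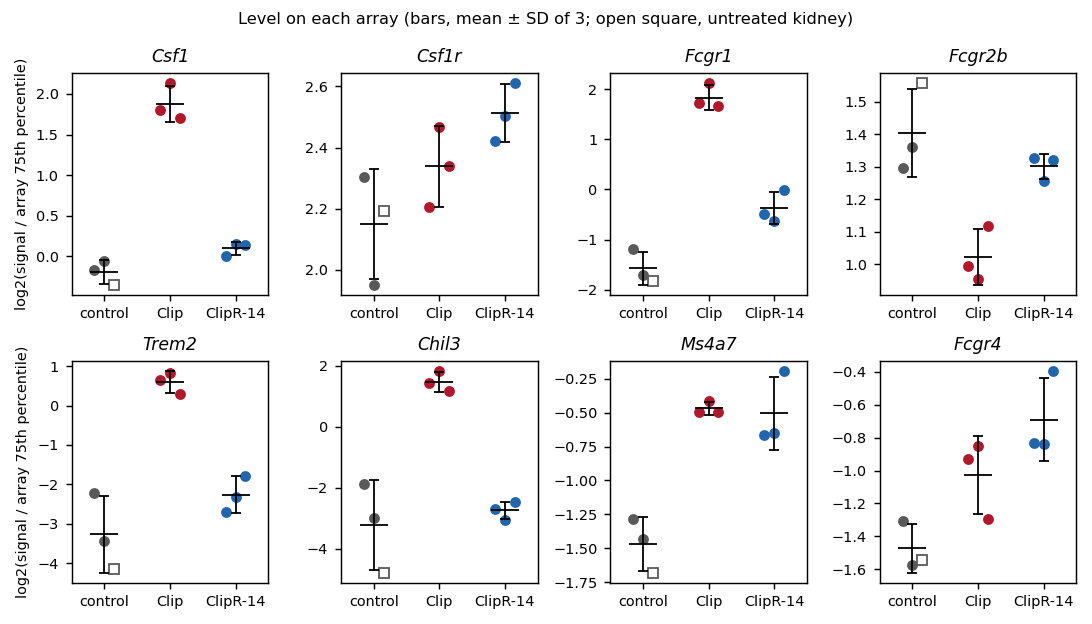
Level on each array, log2 of the signal over the array's 75th percentile, for 8 genes in the 3 arms (3 points each, the untreated kidney as an open square, bars for the mean ± SD); each panel has its own scale. Csf1 and Fcgr1 stand high in Clip, Csf1r overlaps control, Fcgr2b is lowest in Clip, and Ms4a7 and Fcgr4 are as high or higher in ClipR-14.

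The phagocyte NADPH oxidase makes superoxide to kill microbes. Its 3 tested members all rose. Cybb, the catalytic subunit gp91phox, rose 2.29-fold (1.19 ± 0.15, adjusted p = 0.000286). A second, dimmer probe of Cybb was 1.39 higher than control in Clip and 1.50 higher in ClipR-14, where the brighter probe was 0.53 higher, and with the mean of the probes the fall on release was not called (adjusted p = 0.584). Ncf4, the cytosolic subunit p40phox, had levels of -0.84, -0.86 and -1.09 in control, 1.44, 1.79 and 1.39 in Clip, and -0.39, -0.20 and -0.36 in ClipR-14. The 3 arms stood apart, and Ncf4 rose 5.54-fold (2.47 ± 0.13, adjusted p = 4.66e-06). Ncf1, the organizer p47phox, was well above background on the Clip arrays only, where its levels were -3.94, -4.15 and -3.66. It was at least 1.29-fold higher in Clip (adjusted p = 0.000103). Among their partners, Rac2, the leukocyte GTPase of the complex, rose 3.99-fold (adjusted p = 1.51e-05). Cyba, the p22phox subunit that is also made outside phagocytes, fell 1.45-fold (adjusted p = 0.0482), and Rac1, a GTPase of most cells, was not called (-0.03, adjusted p = 0.798).

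Lyz1 and Lyz2 encode lysozyme, which cuts bacterial cell walls. Lyz1 had levels of -1.23, -1.38 and -0.97 in control, 0.47, 1.33 and 1.01 in Clip, and 0.15, 0.80 and -0.17 in ClipR-14. Control lay below both other arms, which overlapped each other, and Lyz1 rose 4.38-fold in Clip (2.13 ± 0.28, adjusted p = 0.000381). Lyz2, the form of macrophages, was above background on no control array, and its measured levels were -5.18, -4.51 and -5.39 in control, -3.10, -2.65 and -3.08 in Clip, and -3.86, -3.36 and -4.24 in ClipR-14. It was at least 2.52-fold higher in Clip (adjusted p = 0.00043). Mpeg1, the pore-forming perforin-2, rose 3.56-fold (1.83 ± 0.13, adjusted p = 1.46e-05).

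Of the 4 tested genes of activation and of lipid or matrix handling, all rose. Chil3, the chitinase-like protein Ym1 of alternative activation, had levels of -1.89, -3.01 and -4.79 in control, 1.43, 1.82 and 1.16 in Clip, and -2.71, -3.05 and -2.48 in ClipR-14. Clip was clear of the other arms, whose levels overlapped, and Chil3 rose 25.9-fold (4.70 ± 0.61, adjusted p = 0.000344). It was above background on 2 of 3 control arrays, so this fold rests in part on a dim spot. Its control arrays spread as those of Trem2 did, sham 1 highest and untreated lowest. Arg1, which splits arginine and marks alternative activation, was well above background on the Clip arrays only, with levels of -3.07, -4.05 and -3.80 there, and was at least 1.56-fold higher (adjusted p = 4.93e-05). Lgals3, the lectin galectin-3, rose 4.74-fold (2.25 ± 0.16, adjusted p = 1.74e-05). Aif1, the actin-binding marker IBA1, had levels of -0.92, -0.96 and -0.77 in control, 1.68, 1.82 and 1.54 in Clip, and -0.08, 0.04 and -0.08 in ClipR-14. Its 3 arms stood apart with little spread, and it rose 5.91-fold (2.56 ± 0.10, adjusted p = 1.38e-06).

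The 6 genes shared by most leukocytes all rose. Ptprc, the phosphatase CD45, had levels of -0.57, -0.40 and -0.17 in control, 0.95, 1.25 and 0.86 in Clip, and 0.09, 0.29 and -0.10 in ClipR-14. The arms did not overlap, and Ptprc rose 2.63-fold in Clip (1.40 ± 0.16, adjusted p = 0.000149). Coro1a, an actin regulator of leukocytes, had levels of 0.05, 0.24 and 0.16 in control, 2.51, 2.88 and 2.46 in Clip, and 0.70, 0.89 and 0.52 in ClipR-14. It rose 5.54-fold (2.47 ± 0.14, adjusted p = 6.63e-06). Plek, or pleckstrin, a kinase substrate of platelets and leukocytes, had levels of -3.63, -3.85 and -3.30 in control, -1.46, -1.08 and -1.20 in Clip, and -2.94, -2.86 and -2.91 in ClipR-14. In both genes ClipR-14 lay between the other arms with no overlap, and Plek rose 5.07-fold (2.34 ± 0.15, adjusted p = 1.11e-05). The lysosomal Laptm5, the tetraspanin Cd53 and the adhesion protein Cd48 rose 3.91-fold, 3.66-fold and 3.89-fold, but Cd53 was above background on only 1 of 3 control arrays.

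**Figure D3:**
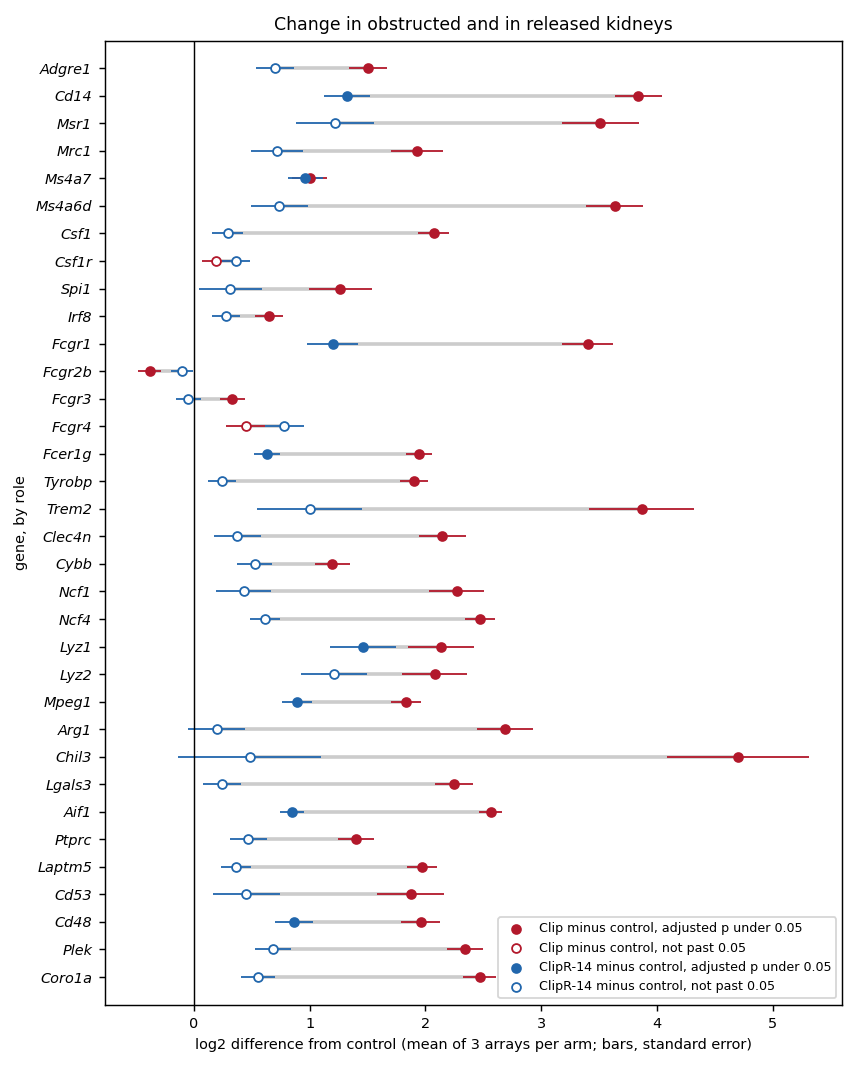
Log2 difference from control of Clip (red) and of ClipR-14 (blue) for the 34 genes by role, with the SE of the fit; filled points passed an adjusted p of 0.05. In Clip 32 points are filled and in ClipR-14 8 are, and the blue points lie between 0 and the red ones for most genes but not for Csf1r, Fcgr3 or Fcgr4.

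Each gene was also set against Ptprc on the same array, which asks whether it moved by more or less than a gene of all leukocytes. In Clip 21 of the other 33 genes rose by more than Ptprc and 5 moved by less, where 3.4% of all genes rose by more and 87.4% moved by less. Ptprc rose least of the 6 genes shared by most leukocytes, whose changes ran from 1.40 to 2.47 with a median of 1.96. These counts therefore hold for Ptprc as the reference and not for leukocyte genes in general. The 5 were Csf1r, Irf8, Fcgr2b, Fcgr3 and Fcgr4. With normexp 11 genes rose by more, and with the mean of each gene's probes 14 did. Leaving out any 1 array gave 20 to 27 genes that differed from Ptprc in either direction.

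In the wider lists of myeloid genes 41 of 56 tested genes rose in Clip and 3 fell, against 21.4% and 27.6% of all genes. The lists differed. Among the 7 other myeloid transcription factors 1 rose and 2 fell, and among the 4 NADPH oxidase partners 2 rose and 1 fell. Of 7 integrins and complement genes 7 rose, with Itgam, the integrin CD11b, at least 1.97-fold higher and C3ar1, the receptor for C3a, at least 1.91-fold higher. Of 21 other monocyte and macrophage genes 16 rose and 0 fell. Among them Ccr2, the chemokine receptor of inflammatory monocytes, was at least 3.91-fold higher (adjusted p = 6.02e-05).

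Among markers of other cells in Clip, the T and NK cell, tubule, podocyte and erythroid lists had shares of called genes above those of all genes (21.4% higher, 27.6% lower). The neutrophil list did not, with 20% higher. The B cell and dendritic cell lists, each of 4 tested genes, had 25% higher, near the share of all genes. Of 11 tested T and NK cell genes 8 rose and 0 fell, and their summed level was 0.904 to 1.21 in control, 2.08 to 2.89 in Clip and 1.33 to 2.21 in ClipR-14. Gzma, a protease of cytotoxic cells, was at least 1.54-fold higher and Cd5 rose 3.27-fold. Of 5 tested neutrophil genes only the protease gene Mmp9, above background on 1 of 3 control arrays, rose (2.73-fold), and the summed level of the 5 ranged from 3.83 to 12.0 in control and from 9.03 to 13.2 in Clip, which overlap. The neutrophil genes Mpo, Elane, Camp, Ngp and Mmp8 were above background on 0 arrays. S100a8 changed by 0.31 (adjusted p = 0.63) and S100a9 by 0.44 (adjusted p = 0.499). Among 4 dendritic cell genes Batf3 rose 2.25-fold, with summed levels of 0.817 to 1.04 in control and 1.56 to 1.83 in Clip, and among 4 B cell genes Cd79b rose 2.06-fold and Jchain fell 3.81-fold. No mast cell gene was tested, since none with a probe was above background on any array. All 9 kidney tubule genes fell, from a summed level of 762 to 885 in control to 358 to 368 in Clip. In the podocyte list 3 of 5 tested genes fell and 0 rose. In the erythroid list, which shares Slc4a1 with the tubule list, 3 of 5 fell and 0 rose. Each level is relative to an array's 75th percentile, and the part of the tubule and leukocyte markers in the myeloid values was not tested.

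Released kidneys were compared with controls to see how far the genes had come back. Of the 34 genes 8 were higher than control and 0 were lower, where 1.46% of all genes were higher and 0.372% lower. The 8 were Cd14 (2.50-fold), Lyz1 (2.75-fold), Fcgr1 (2.29-fold), Ms4a7 (1.95-fold), Mpeg1 (1.86-fold), Cd48 (1.82-fold), Aif1 (1.80-fold) and Fcer1g (1.55-fold), with adjusted p from 0.0204 for Aif1 to 0.0476 for Lyz1. Another 24 had a positive difference that was not called, and the median of the 34 was 0.58, against -0.01 for all genes. An unadjusted p under 0.05 was reached by 22 of the 34 genes and by 21.5% of all genes tested. The arms did not overlap, with ClipR-14 higher, for 25 of the 34 and for 13.6% of all genes. All 3 slides put 26 of the genes higher in ClipR-14, a count not given here for all genes.

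These 8 calls were near the threshold. With slide as a block, fitted because deviations over all genes were shared by slide, 13 genes were higher. They were the same 8 and also Adgre1, Cybb, Ncf4, Lyz2 and Coro1a. That fit also called more of all genes, 751 higher and 412 lower, against 259 and 66 as reported. No member was called with normexp, with no filter on background or with only the 2 arms in the fit, although 13, 21 and 23 of them had an unadjusted p under 0.05 there (limma). Few genes of any kind passed in these fits: of all genes 0, 11 and 0 were higher and 1, 1 and 0 lower. Without sham 2 or ClipR-14 2, 10 and 2 of all genes were higher. Leaving out sham 2 or ClipR-14 2 also gave 0 (21 and 20 unadjusted), leaving out sham 1, Clip 1 or ClipR-14 3 gave 1, leaving out Clip 2 gave 2, Clip 3 gave 4, ClipR-14 1 gave 5 and the untreated array 6. Of the 19 other settings the call of Aif1 was lost under 6, of Cd14 and Mpeg1 under 10, of Ms4a7 under 11, of Cd48 under 14, of Fcer1g under 15, and of Fcgr1 and Lyz1 under 16. Median scaling, which left 2 members called, put 82 of all genes higher and 97 lower, where scaling to the 75th percentile had 259 and 66; it moved the median of all genes from -0.01 to -0.13.

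**Figure D4:**
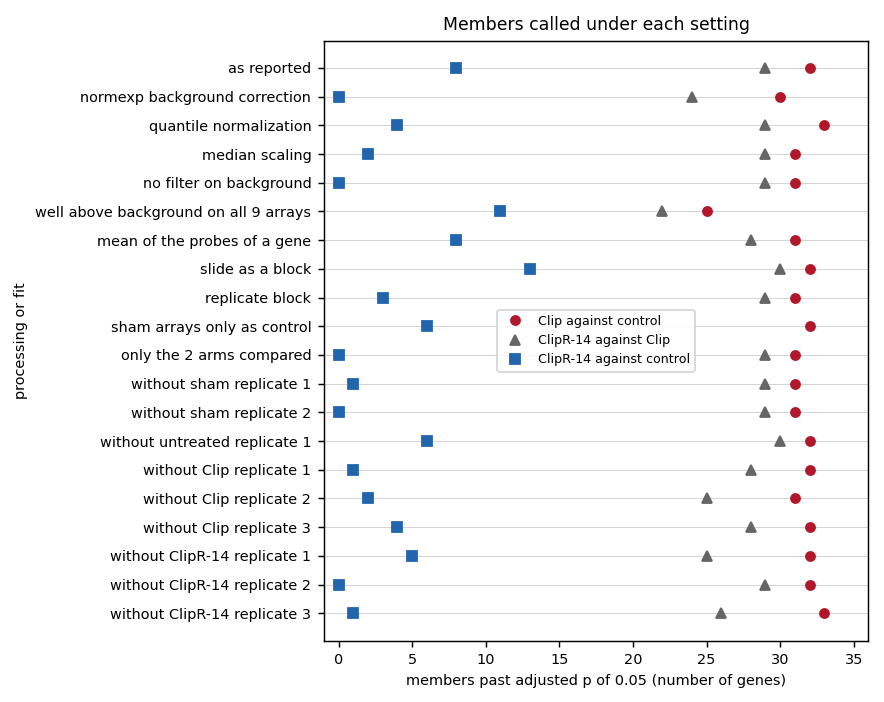
Number of the tested genes past an adjusted p of 0.05 in each comparison (symbols) under each processing or fit (rows); the fit on genes above background on all 9 arrays tested 26 genes, and ClipR-14 against Clip was not run with sham arrays alone as control. Clip against control stays between 25 and 33, ClipR-14 against Clip between 22 and 30, and ClipR-14 against control runs from 0 to 13.

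Between Clip and ClipR-14, which shows what release changed, 29 of the 34 genes were lower after release, 0 were higher and 5 were not called, where 17.4% of all genes were lower and 23.5% higher. The median change was -1.51, against 0.08 for all genes. This comparison shares its ClipR-14 arrays with the one before, and both comparisons with control share the control arrays, so their values are given side by side and not correlated. The largest fall was that of Chil3, 18.6-fold (-4.22 ± 0.61, adjusted p = 0.00087). Cd14 fell 5.73-fold (-2.52 ± 0.20, adjusted p = 3.93e-05), Trem2 7.30-fold (-2.87 ± 0.45, adjusted p = 0.00129), Fcgr1 4.61-fold (-2.20 ± 0.22, adjusted p = 0.000125) and Csf1 3.43-fold (-1.78 ± 0.13, adjusted p = 2.98e-05). Arg1 and Ms4a6d, above background in Clip only, were at least 1.29-fold and 2.42-fold lower. The 5 not called were Ms4a7, Csf1r, Fcgr2b, Fcgr4 and Lyz1. Leaving out 1 array gave 25 to 30 genes called, and the calls of Spi1, Irf8, Fcgr3 and Lyz2 were each lost on leaving out 1 or another of the Clip or ClipR-14 arrays.

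For the 31 genes that rose, the part of the log2 rise still present after release had a median of 29.3% and ran from -14.1% (Fcgr3) to 96.4% (Ms4a7). It was under 25% for 14 genes, from 25% to under 50% for 14, and 50% or more for 3. Among the lowest were Arg1 (7.29%), Chil3 (10.2%), Lgals3 (10.9%), Tyrobp (12.7%) and the growth factor Csf1 (14.1%). Mrc1, like Arg1 and Chil3 a gene of alternative activation, kept 37.2%, and Aif1 kept 33.0%. Adgre1 kept 46.4%, Mpeg1 48.7%, Lyz2 58.1% and Lyz1 68.4%. These shares are ratios of fitted values that share the control arrays, they carry no test, and for genes not above background in control they depend on the level given to a dim spot.

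Ms4a7, singled out after its values were seen, had the highest share left. Its levels were -1.29, -1.43 and -1.68 in control, -0.49, -0.41 and -0.49 in Clip, and -0.67, -0.65 and -0.19 in ClipR-14. Clip and ClipR-14 overlapped and both lay above control. The change on release was -0.04 ± 0.15 (adjusted p = 0.872; 95% interval from -0.39 to 0.31), and its second probe had means of -1.76, -0.81 and -0.83 in the 3 arms. Csf1r, Fcgr4 and Fcgr2b were the 3 genes with a positive change on release, none of it called: 0.17 (adjusted p = 0.286), 0.33 (0.145) and 0.28 (0.0501). Lyz1 changed by -0.67 (adjusted p = 0.0916). For Csf1r and Fcgr4 every ClipR-14 array lay above every control array, by 0.36 ± 0.12 (adjusted p = 0.143) and 0.78 ± 0.17 (adjusted p = 0.0561) in the means, and neither passed the threshold. Fcgr4 passed under 1 of 19 other settings, the fit on genes above background on all 9 arrays (adjusted p = 0.0448). Fcgr2b was back near control, at -0.10 ± 0.10 (adjusted p = 0.573), with ClipR-14 2 (1.26) below every control array and the other arrays of the arm within the control range.

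Relative to Ptprc, 1 gene was higher in ClipR-14 than in control: Lyz1, by 0.99 (adjusted p = 0.0461), where 0.175% of all genes were. No gene was called on leaving out sham 1, sham 2, Clip 1, ClipR-14 1 or ClipR-14 2, where 4 to 8 had an unadjusted p under 0.05 (limma). Of the 56 tested genes in the wider myeloid lists, 6 were higher than control after release and 0 lower, against 1.46% and 0.372% of all genes, and 37 were lower than in Clip, against 17.4% of all genes. The 6 included Ccr2 (2.40 on the log2 scale, adjusted p = 0.0304) and the complement genes C1qb (1.22, adjusted p = 0.0295) and C1qc (0.90, adjusted p = 0.0358). Of the T and NK cell markers Cd3g was higher than control in released kidneys (0.96, adjusted p = 0.0424), and the 9 tubule genes had summed levels of 775 to 915, which overlap those of control.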

How the data were processed

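Total RNA of 9 whole left kidneys (500 ng each, per the labels) was labelled with Cy3 and hybridized to single-colour Agilent mouse arrays. The deposited files hold each spot's intensity; per the file headers Feature Extraction 10.7.3.1 had subtracted background, with no scaling between arrays. The deposited table of log2 values was not used: of 8142 rows with values 8065 were set against the scanner values of the probe they name, and the median correlation over the arrays was 0.00157.

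Each array held 41174 probes, 52.0% to 57.5% of them well above background, and 0 saturated spots. Values are log2 of intensity over its array's 75th percentile, repeated spots being averaged without outlier-flagged ones. Probes above background on at least 3 of 9 arrays were kept, the brightest standing for its gene (17742 genes, of which 13017 had a symbol through the RefSeq table). Control (2 sham, 1 untreated), Clip and ClipR-14 entered 1 limma 3.58.1 fit (R 4.3.3), BH-adjusted over all genes. The code was tested on simulated data.

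Over all genes, deviations from arm means correlated at 0.161 to 0.282 within slides (9 pairs) and at -0.239 to 0.00291 between slides (18 pairs). Slide was therefore also fitted as a block. Over the 34 genes alone the values ran from -0.304 to 0.547 within slides and from -0.515 to 0.439 between slides, which overlap. Alternatives were normexp on median signals (mean signals were not used here), quantile and median scaling, the filter, the mean of probes, sham arrays alone as control, only the 2 arms compared, and leaving out each array. Promoter windows are RefSeq's; protein sequences were not used here. Given with levels and full statistics are the 2 largest changes of each role in Clip, every gene that fell or was not called, and Csf1, Adgre1, Mrc1, Ptprc, Lyz1, Lyz2, Trem2 and Spi1; of other lists, the 2 largest rises and falls, some of which are not reported here; Aif1, Fcgr3 and Ms4a7 and genes of other lists given beyond these were added after their values were seen. The genes, roles and lists were chosen with earlier results of these data known.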

Additional observations from a re-analysis of the deposited data

How the results depend on the processing

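No direction of a called gene reversed under any setting run. Against control, ClipR-14 had 8 genes called as reported. The count was 0 with normexp, 0 with no filter, 0 with only the 2 arms compared, 2 with median scaling, 4 with quantile normalization, 3 with the replicate block and 13 with slide as a block. In that order these fits put 0, 11, 0, 82, 90, 159 and 751 of all genes higher, against 259 as reported. Normexp gave medians of 1.20 (Clip against control), 0.26 (ClipR-14 against control) and -1.0 (ClipR-14 against Clip), and the genes above background on all 9 arrays gave -1.26 in the last. Relative to Ptprc, normexp left 16 genes in Clip. In ClipR-14 that count of genes called in either direction, 1 as reported, was 0 with normexp, quantile normalization, no filter, the mean of probes or only the 2 arms compared. There 3 to 7 genes had an unadjusted p under 0.05 (limma). The count was 2 with sham arrays alone and 3 with genes above background on all 9 arrays. It was 5 with the replicate block (3 higher, 2 lower) and 4 with a block for slide (3 higher, 1 lower). Those blocks put 108 and 180 of all genes higher and 7328 and 5629 lower. The causes were not tested. Leaving out 1 array gave 31 to 33 genes called in Clip, 0 to 6 in ClipR-14 against control and 25 to 30 in ClipR-14 against Clip, medians of 1.91 to 2.10, 0.54 to 0.66 and -1.62 to -1.46, and 20 to 27 and 0 to 2 relative to Ptprc. Over all genes, same-numbered arrays correlated at -0.209 to 0.269. Only the untreated array, numbered 1 but on slide 3, correlated negatively with its same-numbered arrays, which lay on another slide. The replicate number thus largely follows the slide, and these values cannot show whether it pairs kidneys. The replicate block is therefore not read as a paired analysis. With it 31 genes were called in Clip and 29 in ClipR-14 against Clip. Genes dim in control are limited by signal over background, and 3 arrays per arm limit the rest.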
